A study of Mus musculus with 8 samples.

Results

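The miRNAs examined are the mature products of the hairpins miR-17, miR-18a and miR-18b, miR-19a and miR-19b, miR-20a and miR-20b, miR-93, and miR-106a and miR-106b, taken by name from a count table of mouse sperm small RNA. Of 387 mature miRNAs listed, 12 carried one of these names. They held between 1.27% and 1.71% of the counts of a library. Sperm RNA came from C57BL/6 mice 2 months old, in 4 libraries named Exposed and 4 named Trained. The labels place the treatments in work on smell and stress and call the animals F0, and a heading in the table writes the second group as AceTrained; what was done to either group is not described. An untreated group is not among the samples analysed here. Whether each library stands for its own animal or for pooled animals is not stated, so the p-values rest on library-to-library spread that may be technical.

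These miRNAs come from paralogous polycistrons, which are single primary transcripts cut into several hairpins. The miR-17-92 cluster is best known as a growth-promoting set of miRNAs that hold back cell cycle inhibitors and the apoptosis gene Bcl2l11, and in the mouse testis this cluster and miR-106b-25 have been linked with spermatogonia, the dividing germ cells. Each hairpin yields a 5p and a 3p arm, of which one is usually kept as the guide strand in Argonaute while the other is degraded. The bases behind the first base of the guide, called the seed, choose most of its target messenger RNAs.

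The mature sequences are shown because the seed sorts the members into families that cut across the clusters, and because some of them differ by very few bases. They were taken from RefSeq (GRCm38.p6), where all 12 listed members were found. Each is written 5′ to 3′ with the seed, bases 2 to 8, in capitals. The first group has the miR-17 seed.
miR-17-5p: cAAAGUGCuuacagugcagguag
miR-20a-5p: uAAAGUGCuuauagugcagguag
miR-93-5p: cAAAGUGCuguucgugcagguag
miR-106b-5p: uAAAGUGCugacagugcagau
miR-20b-5p: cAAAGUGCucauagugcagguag
miR-106a-5p: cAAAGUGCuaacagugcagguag
The next has the miR-18 seed, which differs from it by 1 base.
miR-18a-5p: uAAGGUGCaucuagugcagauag
The miR-19 pair has a seed of its own.
miR-19a-3p: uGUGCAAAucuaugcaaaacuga
miR-19b-3p: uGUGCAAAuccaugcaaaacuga
The last is the 3p arm of miR-106b, shown because it outnumbered its 5p arm.
miR-106b-3p: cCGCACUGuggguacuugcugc
Counted from 1 at the 5′ end, miR-19a-3p and miR-19b-3p differed by U11C alone. miR-17-5p differed from miR-106a-5p by U10A alone, from miR-20a-5p by C1U and C12U, and from miR-20b-5p by U10C and C12U. How reads that match several of these were assigned is not given in the sources used here, so the split of reads among the miR-17 seed members, and between miR-19a-3p and miR-19b-3p, is uncertain. Among the listed miRNAs with a RefSeq sequence, 310 of 387, no miRNA outside the 12 members carried the seed of miR-17, miR-18, miR-19 or miR-106b-3p.

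The 3 source clusters lie on 3 chromosomes of GRCm38, in positions given by RefSeq and GENCODE; the table names no build. The miR-17-92 cluster spans chr14:115043671-115044506 on the plus strand, in an exon of the non-coding host gene Mir17hg, and holds Mir17, Mir18, Mir19a, Mir20a, Mir19b-1 and Mir92-1. The miR-106b-25 cluster spans chr5:138165321-138165818 on the minus strand, within introns of Mcm7, a subunit of the replicative helicase, when retained-intron transcripts are set aside. It holds Mir106b, Mir93 and Mir25. The miR-106a-363 cluster spans chrX:52741693-52742567 on the minus strand and holds Mir106a, Mir18b, Mir20b, Mir19b-2, Mir92-2 and Mir363. miR-19b-3p is made from Mir19b-1 and from Mir19b-2, and the partner miR-92a-3p likewise from chromosomes 14 and X, so neither can be given to 1 cluster.

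The libraries held 193013 to 261903 counts assigned to listed miRNAs, and all levels are given as CPM, counts per 1000000 of that total. They are miRNA reads alone: the labels give much larger numbers of sequenced reads. Reads of mature miRNAs are of nearly one length, so CPM needs no correction for length. Male germ cell miRNAs, summed over 34 listed arms that include miR-34c, miR-881 and miR-465, made up 37.0% to 45.4% of counts. Red blood cell miRNAs reached 11772 CPM in Trained 3 and 239 to 4233 CPM elsewhere, and smooth muscle and stroma miRNAs 15668 CPM in Exposed 2 and 7415 to 10418 CPM elsewhere. In small RNA from many sperm and other cells, fewer cells of a type and less RNA per cell cannot be told apart.

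The 3 most abundant members in sperm were miR-20a-5p, miR-19b-3p and miR-93-5p, at means of 4655, 3585 and 3421 CPM over 8 libraries. miR-17-5p, which gives the miR-17-92 cluster its name, stood far below them. Of the miR-17 seed members, miR-20a-5p was the most abundant of all 12, at 3737, 5773, 3467 and 5114 CPM in Exposed 1 to 4 and 5594, 4960, 3501 and 5095 CPM in Trained 1 to 4. It was low in Exposed 1, Exposed 3 and Trained 3, and the groups overlapped. miR-93-5p, the guide arm of the miR-106b-25 cluster that shares this seed, stood at 3225, 3849, 2663 and 3373 CPM in Exposed and at 3749, 3648, 3257 and 3605 CPM in Trained. Exposed 3 was its lowest library, and again the groups overlapped. miR-17-5p reached 190, 163, 129 and 176 CPM in Exposed, from 33 to 46 reads. In Trained it stood at 176, 173, 172 and 175 CPM, within the range of the Exposed libraries. The Trained libraries had an SD of 1.91 CPM and the Exposed libraries one of 26 CPM (n = 4 each), a difference that was not tested. Over the 8 libraries the chi-square of miR-17-5p divided by its degrees of freedom was 0.466, where independent counting of reads gives 1 on average. Single values scatter around that average, and whether this one differs from counting was not tested.

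The miR-19 seed members, which in mouse lymphoma are known to carry much of the cluster's growth-promoting activity, were both abundant. miR-19b-3p stood at 3816, 3418, 3240 and 3357 CPM in Exposed and 3561, 4105, 3875 and 3309 CPM in Trained. miR-19a-3p read 2113, 1857, 1616 and 1710 CPM in the Exposed libraries, and 1817, 2210, 2203 and 1682 CPM in the Trained libraries. Both were highest in Trained 2 among the 8 libraries, and for both the groups overlapped. The single listed guide with the miR-18 seed, miR-18a-5p, was lower, at 281, 416, 239 and 368 CPM in Exposed and 371, 387, 283 and 346 CPM in Trained. Like miR-20a-5p it was lowest in Exposed 3, Exposed 1 and Trained 3.

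**Figure D1:**
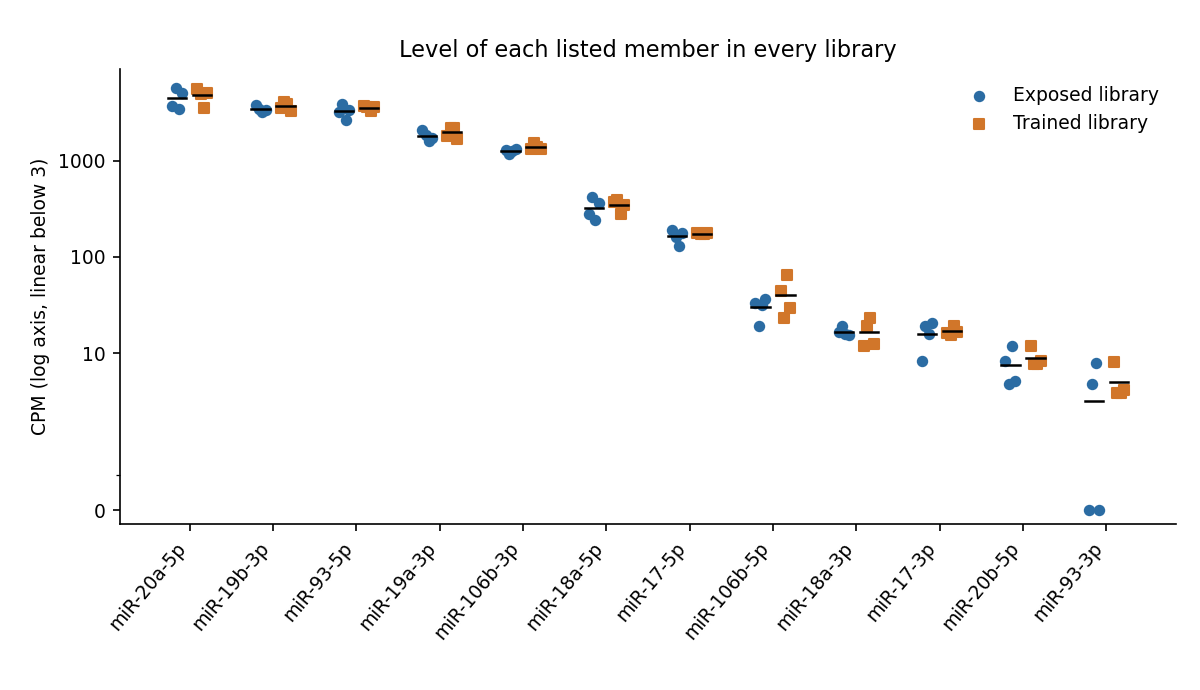
CPM (log axis, linear below 3) of the 12 listed members in each library, with Exposed libraries as circles, Trained libraries as squares and a black line at each group mean of 4. Mean levels over 8 libraries fall from 4655 CPM for miR-20a-5p to 4.06 CPM for miR-93-3p, and the group clouds overlap for all members but miR-106b-3p.

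Over the 8 libraries, miR-20a-5p ranked 41st by mean level among all listed miRNAs, miR-19b-3p 50th, miR-93-5p 52nd, miR-19a-3p 71st, miR-106b-3p 78th, miR-18a-5p 120th and miR-17-5p number 145. Neighbours in this order of the 7 members with a mean count of 10 or more were compared by their log2 count ratio within each library, with a two-sided exact sign-flip permutation test over 8 libraries and p adjusted over 6 pairs by Benjamini-Hochberg. Within the top 3, neither pair of neighbours was separated after adjustment over the 8 libraries. miR-20a-5p and miR-93-5p are not neighbours in this order and were not compared by this test. miR-93-5p had fewer reads than miR-20a-5p in every library, at a count ratio of 0.660 to 0.930. miR-20a-5p was above miR-19b-3p in 6 of 8 libraries (1.28-fold, log2 0.35 ± 0.35, SD, n = 8; exact permutation p = 0.0469, adjusted 0.0563). Without Trained 3 the adjusted p of that pair was 0.0375. miR-19b-3p was above miR-93-5p in 4 of 8 (1.05-fold, log2 0.07 ± 0.19; exact permutation p = 0.320). The other 4 steps held in 8 of 8 libraries, each with an adjusted exact permutation p of 0.0117 and an unadjusted p of 0.0078, the smallest that 8 libraries allow. They were 1.80-fold from miR-93-5p to miR-19a-3p, 1.42-fold from miR-19a-3p to miR-106b-3p, 4.0-fold from miR-106b-3p to miR-18a-5p and 1.97-fold from miR-18a-5p to miR-17-5p. Read levels of different miRNAs also carry the library kit's preference for some ends and sequences, whose part was not tested.

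At the miR-106b hairpin the 3p arm outnumbered the 5p arm in 8 of 8 libraries. miR-106b-3p, whose seed none of the other listed miRNAs with a RefSeq sequence carried, had 312, 248, 325 and 253 reads in Exposed 1 to 4 and 331, 403, 360 and 320 reads in Trained 1 to 4. miR-106b-5p, the arm with the miR-17 seed, had 8, 4, 8 and 7 reads in Exposed and 11, 6, 17 and 7 reads in Trained. The 3p arm made up 97.7% ± 0.487 (SD, n = 4) of the hairpin's reads in Exposed and 97.2% ± 1.33 (SD, n = 4) in Trained. Summed over the libraries there were 2552 reads of the 3p arm and 68 of the 5p arm, a ratio of 37.5. Neighbouring Mir93 showed the opposite split, with 6521 reads of miR-93-5p and 8 of miR-93-3p. The partner Mir25, last of the 3, was again almost wholly 3p, with 34735 reads of miR-25-3p and 18 of miR-25-5p. Counting reads as assigned by seed within this transcript, the miR-17 seed was carried by miR-93-5p with almost no share from miR-106b-5p. miR-106b-5p differs from miR-17-5p and from miR-20a-5p by 3 of 21 bases compared. How reads that match several miR-17 seed members were assigned is not given, so this split is uncertain. The part of the library kit's preference in the arm ratios was not tested.

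In the miR-17-92 cluster the 5p arms led at Mir17 and Mir18. The 3p arm made up 9.01% ± 3.23 of reads in Exposed and 8.80% ± 0.832 in Trained for miR-17 (SD, n = 4), and 5.04% ± 0.982 and 4.71% ± 1.98 for miR-18a. miR-17-3p had 2 to 5 reads per library and miR-18a-3p 3 to 6. No 3p arm of miR-20a and no 5p arm of miR-19a or miR-19b was among the listed rows. Of the 5 low members, miR-106b-5p varied between libraries somewhat more than independent counting of reads gives on average, and the other 4 less. Single values scatter around that average, and no member was tested against it. The chi-square over the 8 libraries, divided by its degrees of freedom, was 1.43 for miR-106b-5p, 0.505 for miR-93-3p, 0.207 for miR-17-3p, 0.198 for miR-18a-3p and 0.190 for miR-20b-5p, where counting alone gives 1 on average. How the table's values were counted is not given in the sources used here, so error limits taken from read counting need not hold for them.

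Products found only in the X-linked miR-106a-363 cluster were close to the counting floor. Its single listed member, miR-20b-5p, had 2, 1, 3 and 1 reads in Exposed and 3, 2, 2 and 2 reads in Trained, or 8.20 ± 2.63 CPM (SD, n = 8). All 8 libraries stood at or under 3 reads. The same seed stood at 4655 ± 942 CPM as miR-20a-5p in the paralogous position of the miR-17-92 cluster. miR-106a and miR-18b had no listed row. The partner miR-363-3p had 1, 1, 1 and 0 reads in Exposed and 3, 4, 2 and 2 in Trained, and miR-363-5p had 1 to 3 reads per library. Of the names that the rule covers, 20 had a RefSeq sequence and 8 of these had no listed row.

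**Figure D2:**
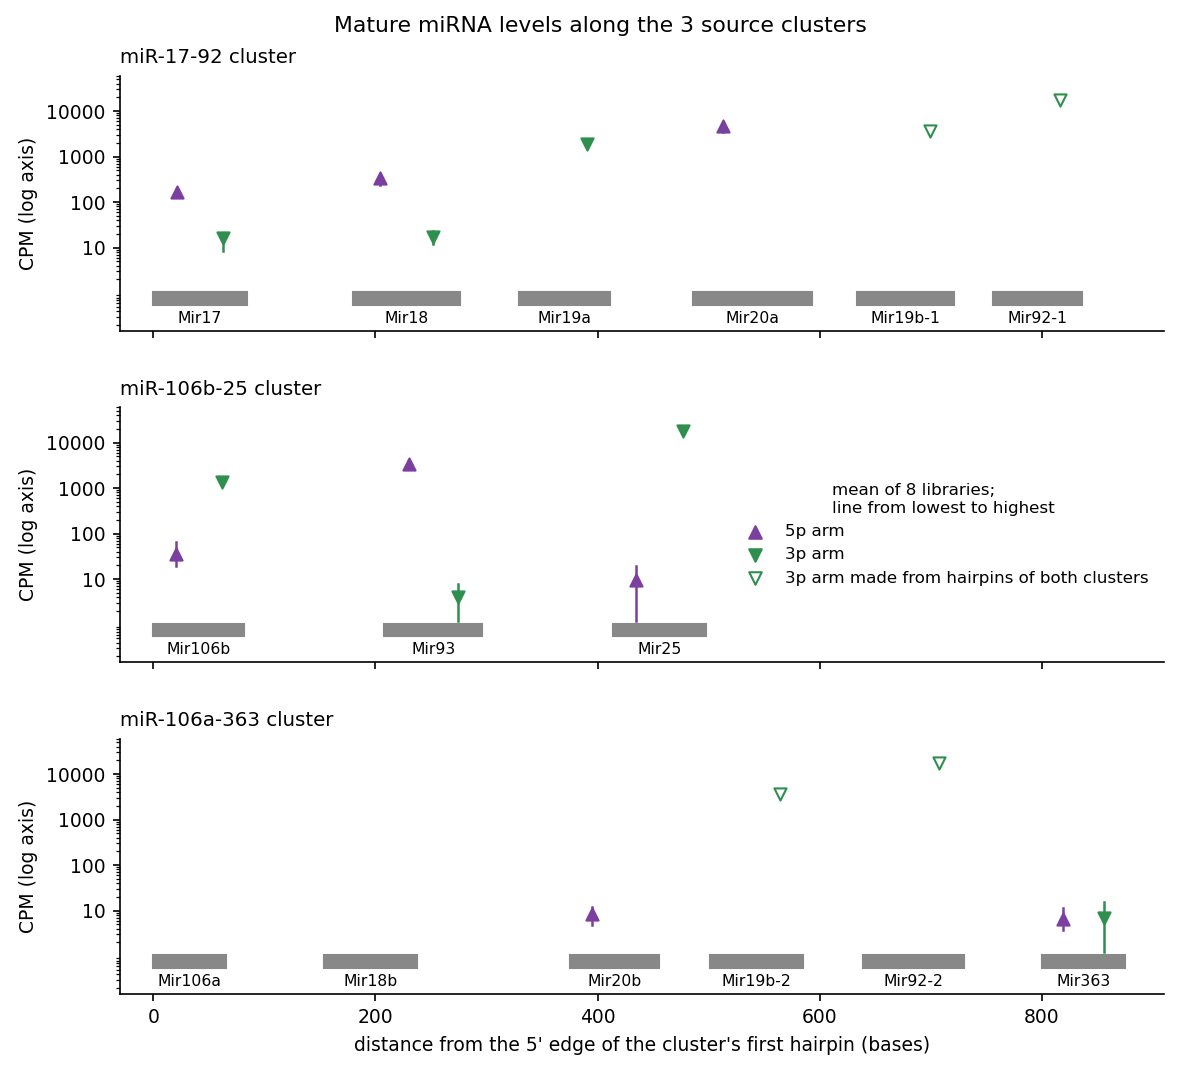
Each panel is 1 cluster drawn to scale by distance in bases from the 5′ edge of its first hairpin (grey boxes). Triangles give the mean CPM of 8 libraries on a log axis for each listed arm, pointing up for 5p and down for 3p and open where hairpins of 2 clusters make the same arm, and lines run from the lowest to the highest library (to the box where that is 0). Products found only in miR-106a-363 lie near 10 CPM, while those of the other clusters range up to 18155 CPM for miR-25-3p.

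Summed by source, with miR-19b-3p kept apart, the 6 listed miR-17-92 members reached 7095 ± 977 CPM, the 4 listed miR-106b-25 members 4790 ± 403 CPM and the single miR-106a-363 member 8.20 CPM (SD, n = 8). As shares of all member reads these were 45.7% ± 2.70, 31.0% ± 0.607 and 0.0541% ± 0.0206, and miR-19b-3p held the remaining 23.3% ± 2.38. The sum was higher for miR-17-92 than for miR-106b-25 in 8 of 8 libraries, by 1.32-fold to 1.63-fold. These sums are given as descriptions without a test. By group, Exposed then Trained, they were 6870 ± 1208 and 7319 ± 794 CPM for miR-17-92, and 4576 ± 452 and 5004 ± 227 CPM for miR-106b-25 (SD, n = 4). In miR-106b-25 the partners, which have another seed, outweighed the members, and with them the sum was 22955 CPM. For miR-17-92 the sum was 27909 CPM with all of miR-19b-3p and miR-92a-3p included. An unknown part of both may come from the X-linked cluster, so the partner's weight in the miR-17-92 transcript alone is not known.

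Ratios between products of one transcript varied to different extents across the 8 libraries, which is given here as a description. Pairs of miR-20a-5p with miR-18a-5p, miR-19a-3p, miR-19b-3p, miR-92a-3p and miR-93-5p were picked after the levels were seen, and miR-19b-3p and miR-92a-3p may come in part from the X-linked cluster. The count ratio of miR-20a-5p to miR-18a-5p lay between 12.4 and 15.1, with an SD on the log2 scale of 0.10. The ratio of miR-19a-3p to miR-19b-3p lay between 0.499 and 0.568 (log2 SD 0.07). By contrast the ratio of miR-20a-5p to miR-92a-3p was 0.194, 0.395, 0.188 and 0.326 in Exposed 1 to 4 and 0.392, 0.258, 0.171 and 0.321 in Trained 1 to 4. That is a 2.31-fold range (log2 SD 0.49), with the lowest values in Trained 3, Exposed 3 and Exposed 1. The pairs with miR-17-5p, chosen for the shared transcript, lay between these extremes in raw SD. Their log2 SD was 0.30 for miR-20a-5p, 0.25 for miR-18a-5p, 0.17 for miR-19a-3p and 0.27 for miR-92a-3p. Counting the reads of both miRNAs of a pair, 33 to 46 per library for miR-17-5p, would by itself give 0.23 to 0.28. For miR-20a-5p to miR-18a-5p counting would give 0.17, and for miR-19a-3p to miR-19b-3p 0.08, both above the SD seen. For miR-20a-5p to miR-92a-3p it would give 0.05, far below the SD seen. Raw SDs of pairs with unlike read numbers therefore do not rank the pairs by steadiness.

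The same libraries were lowest for miR-20a-5p against both miR-19 members. Its ratio to miR-19b-3p ran from 0.903 in Trained 3 to 1.69 in Exposed 2 (log2 SD 0.35), and its ratio to miR-19a-3p from 1.59 to 3.11 (log2 SD 0.39). The ratio of miR-93-5p to miR-20a-5p, which share a seed but not a transcript, had a narrower range of 0.660 to 0.930 (log2 SD 0.18). Within miR-106b-25, the ratio of miR-25-3p to miR-93-5p ranged from 4.55 in Exposed 2 to 6.80 in Exposed 3, with a log2 SD of 0.17. The summed level of male germ cell miRNAs moved in the same direction as miR-20a-5p: it was lowest in the same libraries, at 417347 CPM for Exposed 1, 417515 CPM for Exposed 3 and 370114 CPM for Trained 3, beside 429303 to 453845 CPM elsewhere. Its part in these ratios was not tested. The ratio of miR-19b-3p to miR-92a-3p (0.176 to 0.250, log2 SD 0.16) was also picked after the levels were seen. None of the 6 ratios picked in this way passed a test of Trained against Exposed (two-sided exact permutation test, adjusted p = 1). With 4 against 4 libraries a single changed ratio could not have passed after adjustment. The red blood cell sum was 1000 CPM in Exposed 1, 3216 CPM in Exposed 3 and 11772 CPM in Trained 3, where the leukocyte sum was also highest at 5242 CPM. In the libraries with more miR-20a-5p, the red blood cell sum was 4233 CPM in Exposed 4, 3163 CPM in Trained 4 and 2735 CPM in Trained 1. It was 239 CPM in Exposed 2 and 246 CPM in Trained 2.

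**Figure D3:**
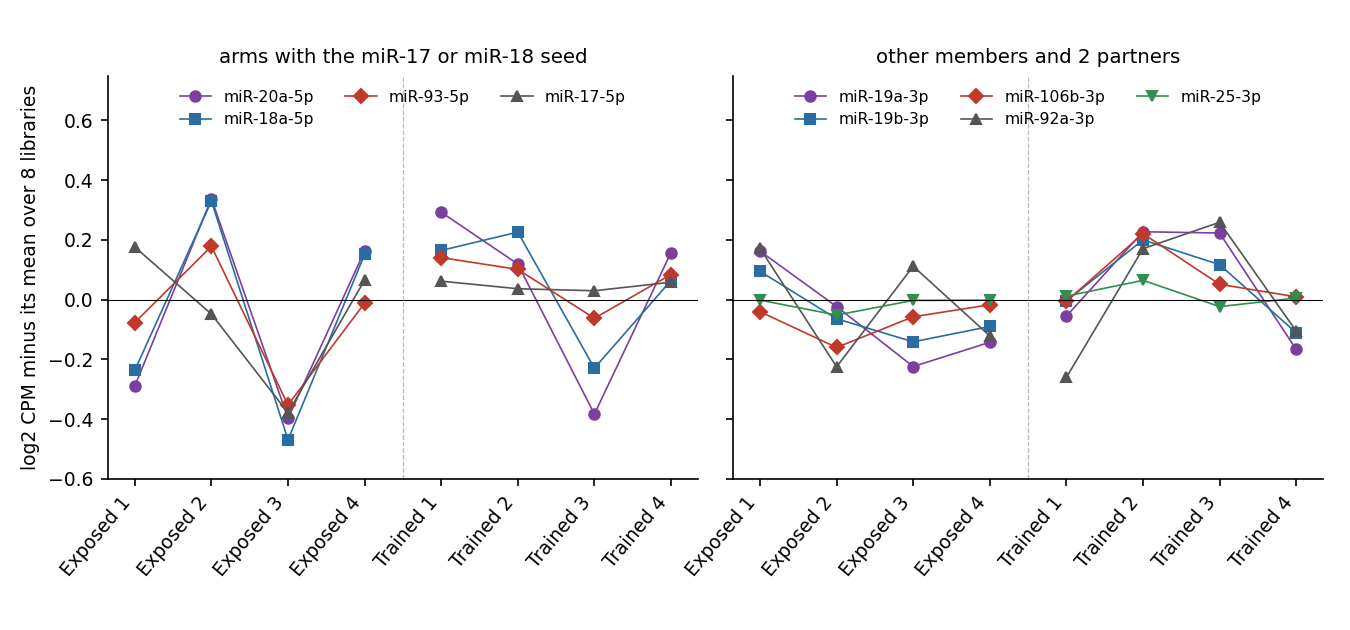
log2 CPM of each miRNA minus its own mean over the 8 libraries; thin lines join the points of one miRNA within a group and imply no order of replicates. miR-20a-5p, miR-18a-5p and miR-93-5p are all below their mean in Exposed 1, Exposed 3 and Trained 3, where miR-92a-3p is above its mean, and miR-25-3p stays close to 0 in all 8 libraries.

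The next comparison asked whether levels of these miRNAs in sperm depended on the treatment, Trained against Exposed. No tested member passed the test. With edgeR's quasi-likelihood test over 226 miRNAs that passed its default count filter, 0 of 7 tested members passed an FDR of 0.05 (FDR = 0.993 for each), nor did any of the 226 (percent called 0). At an unadjusted p under 0.05 there were 0 members and 8 of 226 miRNAs (3.54%). DESeq2 and limma-voom also called 0 of 226, with 12 and 9 miRNAs at an unadjusted p under 0.05. The other 5 members, miR-106b-5p, miR-18a-3p, miR-17-3p, miR-20b-5p and miR-93-3p, had too few counts for the filter.

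All 7 fitted log2 fold changes, Trained over Exposed, were above 0, as were 63.3% of all tested miRNAs. Their median was 0.10, beside 0.04 for all tested miRNAs, and they ran from 0.08 for miR-17-5p and miR-20a-5p to 0.14 for miR-106b-3p. The values of miR-20a-5p, miR-18a-5p and miR-17-5p turned below 0 without Exposed 3 (-0.03, -0.03 and -0.02), the library in which all 3 were lowest. That of miR-20a-5p was -0.0011 without Trained 1. With other scalings all 7 stayed above 0, at a median of 0.03 with upper quartile factors and 0.07 with TMM factors. The 95% intervals reached 0.29 to either side at the median member (log2) and were widest for miR-20a-5p (-0.37 to 0.53) and miR-18a-5p (-0.35 to 0.54).

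The member with the smallest p was miR-106b-3p, at 1290, 1187, 1275 and 1311 CPM in Exposed and 1322, 1546, 1375 and 1335 CPM in Trained. It was the single tested member whose groups did not overlap, which was so for 5 of the 226 tested miRNAs (2.21%). The fold change was 1.10 (log2 0.14, SE 0.09, 95% interval -0.07 to 0.35), with an edgeR FDR of 0.993. With TMM factors the groups overlapped, since Exposed reached 1323 CPM and Trained began at 1276 CPM. For miR-93-5p, made from the same transcript, the means were 3277 ± 488 CPM in Exposed and 3565 ± 214 CPM in Trained (SD, n = 4), a fitted log2 difference of 0.12 (SE 0.12). The partners miR-25-3p and miR-92a-3p stood at log2 fold changes of 0.03 and 0.04, and both signs turned with RLE or upper quartile factors, that of miR-25-3p also with TMM factors.

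**Figure D4:**
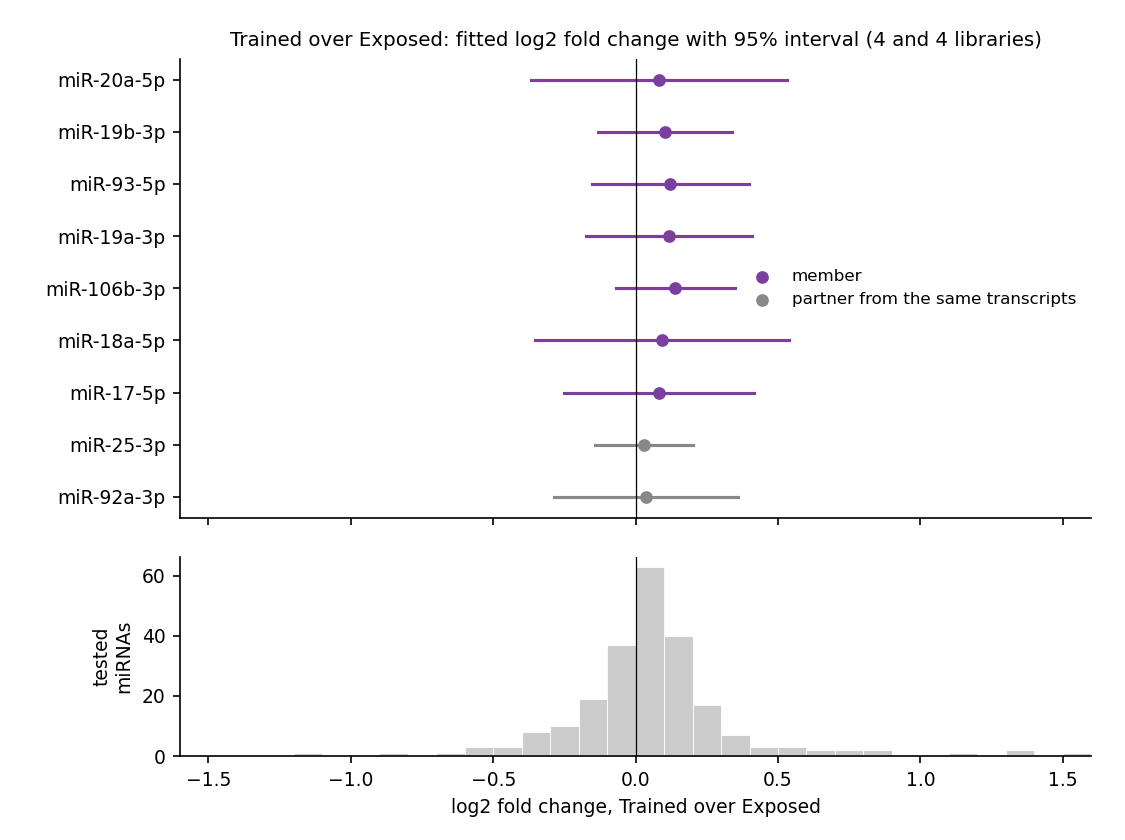
Upper panel: fitted log2 fold change, Trained over Exposed, of the 7 tested members and 2 tested partners, with lines for the 95% interval. Lower panel: the same quantity for all 226 tested miRNAs, as a count per bin of 0.1. Every interval in the upper panel spans 0, and the members lie between 0.08 and 0.14, inside the bulk of the lower panel.

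A count ratio of a pair of miRNAs within a library does not depend on how libraries are scaled. Of 20 pairs chosen for shared transcripts or paralogous positions, 7 had enough counts, and none passed a two-sided exact permutation test between the groups over 70 assignments (smallest p = 0.514, adjusted p = 1 for all 7). The smallest p that 4 against 4 allows is 0.0286. After adjustment over 7 pairs a single changed ratio could therefore not have passed, whatever its size. The log2 ratio of miR-20a-5p to miR-17-5p was 4.76 ± 0.354 in Exposed and 4.76 ± 0.283 in Trained (SD, n = 4), so miR-20a-5p was 27.1 times as abundant in reads in both. That of miR-25-3p to miR-93-5p was 2.47 ± 0.239 in Exposed and 2.36 ± 0.071 in Trained, the widest gap among the 7 at -0.10. Without Exposed 2 that gap was -0.20, and without Exposed 3 it was -0.0030. For miR-19a-3p to miR-19b-3p it was -0.93 ± 0.0724 and -0.91 ± 0.0762. With 0.5 added to each count, 16 listed pairs could be tested and the smallest exact permutation p was 0.114 (adjusted 1). There too a single changed ratio could not have passed after adjustment.

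In the authors' deposited table, which reports edgeR results, 0 of the 12 members had an unadjusted p under 0.05, and 9 had a fold change above 0. The shares of all its listed miRNAs with such a p or direction are not given here, for members or partners. These counts therefore do not show whether the members differ from the rest. The smallest member p in the authors' deposited table was 0.384, for miR-106b-5p, whose authors' means were 6.75 reads for Exposed and 10.25 for Trained. The partner miR-363-3p was the single one among members and partners with an unadjusted p under 0.05 in the authors' deposited table (p = 0.0210, FDR = 0.682 by edgeR, log2 fold change 0.92). Its groups did not overlap, at 0 to 1 reads in Exposed and 2 to 4 in Trained, which is at or near the floor of 3 reads. It did not pass the count filter. It is therefore outside the 226 tested miRNAs, of which 5 (2.21%) did not overlap, and no such share is given here for miRNAs with so few reads. The 17 reads of miR-106b-5p in Trained 3 stood above the 4 to 11 of all other libraries, and that library also had the highest red blood cell sum (11772 CPM), whose part was not tested.

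Outside the members and their partners, the miRNAs whose pattern over the 8 libraries was most like that of the summed members were miR-425-5p, miR-34b-3p and miR-465a-5p. The measure was the root mean square difference of centred log2 CPM. It was 0.04 for miR-425-5p, 0.07 for miR-34b-3p and 0.09 for miR-465a-5p, beside a median of 0.27 over 217 miRNAs compared. miR-425-5p ranged from 3169 to 4251 CPM, while the summed members ranged from 12713 CPM in Exposed 3 to 17097 CPM in Trained 2. The others are germ cell miRNAs, miR-34b-3p at 8920 to 11565 CPM and miR-465a-5p at 1585 to 2283 CPM.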

How the data were processed

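Small RNA of 8 mouse sperm samples was sequenced from miRNeasy extracts as 50 nt single-end reads, per the labels' protocols. Counts per mature miRNA are whole numbers as deposited by the authors; for the counting, aligner, miRNA reference and build, no source used here gives a tool. Beside these, the authors' deposited table has log2 fold changes with average log2 CPM, p-values with FDR, and group means of counts (a score without error). The submitters' processing notes name edgeR.

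Sample titles gave groups and replicate numbers. No pair of libraries within a group matched to within sampling noise (chi-square over its degrees of freedom, 2.41 to 44.6), so all 8 were used. Levels and tests used library totals; TMM and other scalings were alternatives. The test was edgeR 4.0.16 (R 4.3.3), robust quasi-likelihood, two-sided, Benjamini-Hochberg over all tested miRNAs. The filter left out miRNAs holding 0.258% of counts. Standard errors are the log2 fold change over the root of its F statistic. Ratios used exact permutations, and required a mean count of 10 and no 0. The edgeR test and the exact permutation and sign-flip tests were tried on simulated data, while the alternatives and the outlier check were not. DESeq2 1.42.0 and limma 3.58.1 were alternatives. Counts are reads, so intervals cover the spread between libraries only; 3 reads are 11.5 to 15.5 CPM.

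The members and lists were chosen with earlier results of these data known. The text names all members, their partners (miR-25, miR-92a, miR-363) and the 3 miRNAs most alike in pattern.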

Additional observations from a re-analysis of the deposited data

Results flagged for a closer look

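In 66 groups of 4 values checked (levels, sums and log2 ratios), 3 had a library set apart from the other 3, where chance gives about 1 in 20. miR-25-3p stood at 17511 CPM in Exposed 2 and at 18118 to 18128 CPM in the other Exposed libraries. miR-20b-5p stood at 12 CPM in Trained 1 and at 7.64 to 8.35 CPM in the other Trained libraries, a gap of 1 read. miR-93-3p stood at 7.99 CPM in Trained 1 and at 3.82 to 4.17 CPM in the others, also 1 read.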

How the results depend on the processing

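The count of members called stayed at 0 under every scaling, filter and tool run and without any 1 library. The count of called ratios was 0 with a constant added, with the replicate number as a block and without any 1 library. In none of these settings could a single changed ratio have passed after adjustment, so that count does not show whether the result is stable. Of 133 recomputed member folds, 129 kept their direction. The 4 that turned were miR-20a-5p (range without 1 library -0.026 to 0.22), miR-18a-5p (-0.032 to 0.23) and miR-17-5p (-0.022 to 0.16), all without Exposed 3, and miR-20a-5p without Trained 1. Their median ran from 0.03 to 0.15 without 1 library. It was 0.12 without Exposed 2 and Trained 3, a setting chosen after seeing the data, where miR-20a-5p stood at 0.35. miR-25-3p turned to -0.0029 (TMM), -0.0054 (RLE), -0.0055 (DESeq2) and -0.042 (upper quartile). miR-92a-3p turned to -0.00082 (RLE), -0.00090 (DESeq2), -0.048 (upper quartile) and -0.11 (without Exposed 2 and Trained 3), with -0.047 to 0.12 without 1 library. The cause was not tested.

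Of 70 recomputed group differences in log2 ratio, 17 turned, reaching 0.14 (miR-20a-5p to miR-17-5p without Trained 3). The ranges without 1 library were -0.11 to 0.15 (miR-18a-5p to miR-17-5p), -0.045 to 0.10 (miR-19a-3p to miR-17-5p), -0.020 to 0.038 (miR-19a-3p to miR-19b-3p), -0.16 to 0.14 (miR-20a-5p to miR-17-5p, and 0.0034 with 0.5 added), -0.15 to 0.092 (miR-92a-3p to miR-17-5p), -0.039 to 0.12 (miR-93-5p to miR-17-5p) and -0.20 to -0.0030 (miR-25-3p to miR-93-5p). Neighbours that differed in level numbered 4 or 5 without 1 library. The cluster sum was 10680 CPM for miR-17-92 with miR-19b-3p added. With partners it was 27909 CPM for miR-17-92, 22955 CPM for miR-106b-25 and 21.9 CPM for miR-106a-363.

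With the replicate number as a block, 0 members were called and their median was 0.11. Libraries of equal number did not all go together (correlations -0.40, 0.68, 0.68 and 0.52 over 226 miRNAs), so the numbers were not taken as pairs. With 4 libraries of 1 group, the sign-flip test cannot reach 0.05. Depth leaves 5 members at 17 reads or fewer per library.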

Other observations

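Low counts varied little between libraries across the table, as did those of some members. Of 234 miRNAs with a mean count under 30, 169 varied between libraries by less than counting reads would give on average, and the median chi-square per degree of freedom was 0.622, where counting alone gives a median of 0.907. For the 43 miRNAs with a mean count of 1000 or more the median was 64.6. Group and library were not used in these values beyond the library total.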
